A study of Mus musculus with 27 samples.

Results

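Notch pathway and neural bHLH genes were followed over 27 Affymetrix arrays of mouse cells and tissues, 1 array per sample. The group held 9 genes taken by symbol from the probe annotation, out of 19937 genes measured: the receptors Notch1 and Notch2, the ligands Dll1 and Jag1, the Notch target factors Hes1, Hes5 and Hey1, and the oligodendrocyte lineage factors Olig1 and Olig2. All 9 were measured, and none was left out by a filter on low values. Of the cell cultures, 6 were immortalized lines of neural stem cells labelled p53 mutant (lines 3, 28, 31, 59, 95 and 116) and 4 were such lines labelled wild type, WT (lines 119, 120, 123 and 331). A further 2 held normal, not immortalized, neural stem cells (NSCs), also labelled WT. The tissue samples were 12 tumors, 3 each from lines 1 (WT), 31 (p53 mutant), 59 (p53 mutant) and 123 (WT), and 3 WT samples of subcutaneous tissue (SubQ). Every sample, cultures included, carried the same host label, CB17/ICR-Prkdcscid/IcrCrl, a severely immunodeficient mouse strain. The labels used here give no p53 allele, no way of immortalization and no age. Each cultured line was profiled once, line 1 only as tumors, and the titles call all arrays biological replicates. Nothing states whether the 3 tumors of a line came from separate mice, so p-values speak of the spread among the samples at hand.

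Notch signalling passes between touching cells. A ligand of the Delta or Jagged family pulls on a Notch receptor, the receptor is cut by a metalloprotease and then by the gamma-secretase complex, and its freed intracellular part enters the nucleus, where it joins the DNA-binding protein Rbpj and a Mastermind coactivator. In neural stem cells the best known targets are the Hes and Hey genes, whose bHLH proteins repress the proneural bHLH factors and hold the cells undifferentiated, while Olig2 and Olig1 direct progenitors towards oligodendrocytes.

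The stretch of 250 bases before the transcription start was read for 6 of the 9 genes, with 2 starts for Dll1, from the RefSeq promoter table of GRCm38.p6. Of these, 4 are shown because the results below turn on the receptors and Olig2, and because Hes5 is the textbook direct target. Capitals mark the Rbpj motif GTGGGAA, searched on both strands.
Hes5, chr4:154960673-154960922 (plus strand): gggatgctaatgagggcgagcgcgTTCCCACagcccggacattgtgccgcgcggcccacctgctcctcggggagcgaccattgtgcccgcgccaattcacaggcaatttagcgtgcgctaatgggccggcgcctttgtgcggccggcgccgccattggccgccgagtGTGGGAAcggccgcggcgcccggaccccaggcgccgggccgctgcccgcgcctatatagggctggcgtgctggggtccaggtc
Notch1, chr2:26503823-26504072 (minus strand): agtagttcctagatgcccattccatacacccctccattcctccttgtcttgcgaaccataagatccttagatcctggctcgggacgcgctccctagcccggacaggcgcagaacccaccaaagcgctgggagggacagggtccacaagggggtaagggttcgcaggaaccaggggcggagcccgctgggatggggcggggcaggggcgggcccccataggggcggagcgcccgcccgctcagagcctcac
Notch2, chr3:98013288-98013537 (plus strand): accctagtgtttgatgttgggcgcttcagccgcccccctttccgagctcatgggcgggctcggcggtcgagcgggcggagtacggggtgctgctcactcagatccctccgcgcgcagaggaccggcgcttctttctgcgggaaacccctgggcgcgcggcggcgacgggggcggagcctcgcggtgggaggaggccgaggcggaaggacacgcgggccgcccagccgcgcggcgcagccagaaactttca
Olig2, chr16:91225300-91225549 (plus strand): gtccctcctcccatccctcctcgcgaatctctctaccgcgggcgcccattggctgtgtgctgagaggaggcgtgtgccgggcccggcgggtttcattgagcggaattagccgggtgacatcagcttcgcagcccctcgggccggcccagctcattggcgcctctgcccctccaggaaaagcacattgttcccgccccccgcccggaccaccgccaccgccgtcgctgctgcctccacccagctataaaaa
The Hes5 promoter held 2 copies of the Rbpj motif, 83 and 226 bases before the start, the one at 226 bases on the opposite strand to the gene. The motif was present in 5.42% of the 32851 promoters in the table and in none of the windows of Notch1, Notch2, Olig2, Dll1 and Jag1. The N box CACNAG, to which Hes proteins can bind, was found once each in the Notch1 window (108 bases before the start) and the Notch2 window (247 bases before it), and in 36.67% of all promoters. The E box CANNTG of the general bHLH family was found in the windows of Hes5, Jag1 and Dll1 but not in those of Notch1, Notch2 and Olig2, against 66.22% of all promoters. These are matches of letters and were not tested as binding sites.

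The deposited values are log2 expression levels, so a difference of 1 is a doubling, and the levels of different genes come from different probes and are not compared with each other. Cell arrays and tissue arrays had no exactly equal value in any of 180 cross pairs, while 2 cell arrays shared 28 to 83 values and 2 tissue arrays 41 to 626, so tests stayed within each set. The SubQ arrays stood apart from the others. Their values spread less over genes (SD 0.87 to 1.02, against 1.63 to 1.79 in tumors), and they correlated with each other over genes at 0.656 to 0.720, against 0.942 to 0.985 among tumors of 1 line. Of 10 neural stem cell markers all lay above the median gene in NSCs, with a list mean of 9.92 to 9.99, against 6 of 10 in the immortalized lines, whose list mean was 7.62 to 8.27. Prom1 lay under the 25th percentile of genes in the lines.

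The question of the first comparison was how immortalized lines differ from normal NSCs. Compared with the 2 NSC cultures, the 10 lines had more Notch2 and less Notch1, Dll1, Olig1 and Olig2. Jag1, Hes1, Hes5 and Hey1 did not pass the test. With limma and an adjusted p under 0.05 over all genes, 5 of the 9 genes were called, 1 higher and 4 lower, beside 15% of all genes called (6.79% higher and 8.22% lower). The median log2 change was −0.58 over the 9 genes and −0.01 over all genes.

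The receptors moved in opposite directions. Notch2, a receptor closely related to Notch1, had log2 levels between 8.55 (line 59) and 9.36 (line 3) in the lines, with a median of 8.83, against 7.26 and 6.98 in the NSC cultures. All 10 lines lay above both NSC arrays. The log2 change was 1.74 ± 0.18 SE (limma adjusted p = 2.13e-05), and it ranged over 1.59 to 1.88 when single arrays were left out. Notch1, the receptor best studied in neural stem cells, ranged in the lines over 7.53 to 8.28 with a median of 7.92, against 8.98 and 8.70 in NSCs. Every line lay below both NSC arrays, and the log2 change was −0.95 ± 0.19 SE (limma adjusted p = 0.00334). The call ended without NSC replicate 1 (−0.80, limma adjusted p = 0.0919) and held without NSC replicate 2 (−1.09, limma adjusted p = 0.0227).

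Of the ligands, Dll1, which neighbouring progenitors present to each other, ranged over 6.53 to 6.95 in the lines (median 6.73), against 7.51 and 7.52 in NSCs. The groups did not overlap, and the log2 change was −0.79 ± 0.10 SE (limma adjusted p = 0.000151). Jag1, a ligand of the Jagged family, was spread more widely, over 7.92 to 10.26 in the lines with a median of 8.21, against 9.26 and 9.11 in NSCs. Line 123 alone lay above both NSC arrays, line 95, at 9.12, lay between them, and the other 8 lines lay below. The difference of −0.58 ± 0.47 SE did not pass the test (limma adjusted p = 0.519).

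None of the 3 Notch target factors passed the test. Hes1, a repressor whose levels oscillate in progenitors, ranged over 6.35 to 7.77 in the lines (median 7.33), against 7.22 and 7.03 in NSCs, a difference of 0.17 ± 0.26 SE (limma adjusted p = 0.785). Line 331, at 6.35, was below all other cultures. Hes5, the target with the 2 Rbpj motifs shown above, ranged over 7.85 to 8.22 in the lines (median 8.07), against 8.29 and 8.32 in NSCs. Its groups did not overlap, but the difference was small, −0.25 ± 0.10 SE, and missed the threshold (limma adjusted p = 0.116). Hey1, a target gene also known from blood vessels, ranged over 7.01 to 9.46 in the lines (median 7.41), against 8.36 and 8.09 in NSCs. Line 95 stood at 9.46, all other lines below both NSC arrays, and the difference of −0.55 ± 0.48 SE did not pass the test (limma adjusted p = 0.561).

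Olig1 and Olig2, neighbouring genes of chromosome 16 whose proteins specify the oligodendrocyte lineage, had the largest changes among the 9 genes. Olig1 lay between 6.11 and 6.46 in the lines (median 6.29), against 10.23 and 9.999 in NSCs. Olig2 lay between 5.98 and 6.38 in the lines (median 6.22), against 10.07 and 9.63 in NSCs. No line stood apart from the other 9 in either gene, and no line came near the NSC arrays. The log2 changes were −3.82 ± 0.11 SE for Olig1 and −3.66 ± 0.13 SE for Olig2 (limma adjusted p = 4.1e-11 and 4.08e-10). The mean of the lines was low among all genes, at percentile 27.5 for Olig1 and 25.4 for Olig2, and whether it exceeded background was not tested. Beside them, 4 of 9 other oligodendrocyte precursor markers were lower in the lines and none higher, with a list mean of 6.63 to 7.39 in the lines, against 8.19 to 8.50 in NSCs. The shift was not limited to that list: 6 of 8 astrocyte markers (1 higher, list mean 6.97 to 7.19 in the lines, against 8.64 to 8.80 in NSCs), 4 of 8 neuron markers (6.65 to 8.03 in the lines, against 8.16 to 8.26 in NSCs) and 6 of the 10 neural stem cell markers were lower too. Of mural markers 2 of 8 were higher and 1 lower (7.70 to 7.94 in the lines, against 6.68 to 6.84 in NSCs). The 1 lower was Notch3, itself a gene of the Notch pathway. Of fibroblast markers 2 of 8 were higher and none lower (7.38 to 9.08 in the lines, against 6.97 to 7.02 in NSCs). Beside these marker counts stand 6.79% of all genes higher and 8.22% lower. The part of these shifts in the Olig and Notch results was not tested. In whole cultures fewer cells of a type and less RNA per cell cannot be told apart.

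**Figure D1:**
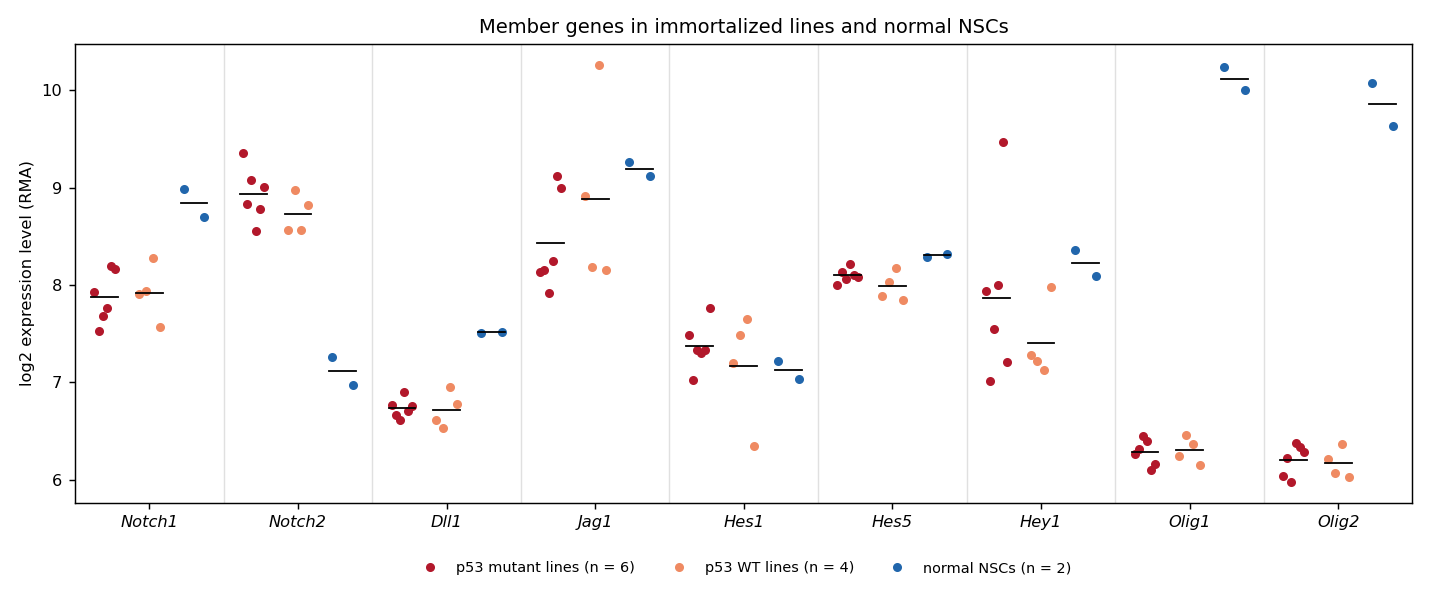
Log2 expression level (RMA) of the 9 genes in p53 mutant lines, p53 WT lines and normal NSCs, 1 point per array, with a bar at each group mean. Olig1 and Olig2 lie between 5.98 and 6.46 in all lines and at 9.63 or above in NSCs, Notch2 is higher in every line, and single lines stand apart for Jag1, Hes1 and Hey1.

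The rest of the pathway was read from lists of other genes. Beside the counts of these lists in lines against NSCs stand 6.79% of all genes higher and 8.22% lower. The counts are not read as results about the pathway. Of 8 other receptors and ligands 2 were lower in the lines. Dner, a Notch-like transmembrane protein of neurons, ranged over 6.19 to 6.82 in the lines (median 6.37), against 9.11 and 8.70 in NSCs (log2 change −2.52 ± 0.14 SE, limma adjusted p = 4.73e-08). Notch3, a receptor prominent in mural cells, was lower by a small amount (−0.29 ± 0.08 SE, limma adjusted p = 0.0287), a call that ended without either NSC array.

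Of 16 genes of receptor processing and the nuclear complex 4 were higher and 3 lower. Maml2, a Mastermind coactivator, fell by 1.30 ± 0.19 SE on the log2 scale (limma adjusted p = 0.000385), while its relative Maml3 rose by 0.76 ± 0.19 (limma adjusted p = 0.0136). Kat2b, a histone acetyltransferase, rose by 0.97 ± 0.19 (limma adjusted p = 0.00313), and Furin, the protease that matures the receptor precursor, by 0.82 ± 0.19 (limma adjusted p = 0.00998). Without NSC replicate 2 the calls of Kat2b, Furin and Maml3 ended, and without NSC replicate 1 those of Furin and Maml3 (limma adjusted p up to 0.142 over all alternatives). Rbpj itself ranged over 8.997 to 10.85 in the lines (median 10.12), against 9.20 and 9.30 in NSCs. The groups overlapped through line 116, and the difference of 0.84 ± 0.37 SE did not pass the test (limma adjusted p = 0.16).

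Of 26 modifiers and inhibitors 4 were lower and none higher. Tle4, a Groucho corepressor, fell by 1.96 ± 0.28 SE on the log2 scale (limma adjusted p = 0.000267). Lfng, the fringe glycosyltransferase that tunes which ligand a receptor answers to, ranged over 6.65 to 7.30 in the lines (median 7.11), against 8.55 and 8.13 in NSCs (−1.27 ± 0.16 SE, limma adjusted p = 0.000104). Nrarp, a Notch target that feeds back on the receptor's intracellular part, ranged over 6.16 to 7.33 in the lines (median 6.72), against 7.95 and 7.56 in NSCs (−1.10 ± 0.25 SE, limma adjusted p = 0.00783). The call of Nrarp ended without NSC replicate 1 (limma adjusted p up to 0.16 over all alternatives), and those of Tle4, Lfng and Maml2 held in all 20. Dtx1, a deltex ubiquitin ligase, had a log2 change of −0.34 ± 0.08 SE, a call that also ended without NSC replicate 1.

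Among 9 other Hes and Hey factors 1 was called. Hey2, the closest relative of Hey1, ranged over 6.37 to 8.50 in the lines (median 7.81), against 5.52 and 5.84 in NSCs, so every line was above both. The NSC mean of Hey2 was at percentile 16.0 of genes, under the 25th, and whether it exceeded background was not tested. The log2 change was 1.93 ± 0.49 SE (limma adjusted p = 0.0174), and the call ended without either NSC array (limma adjusted p up to 0.185). Of 18 other neural bHLH factors only Tcf12, an E protein that pairs with them, was called, at −0.58 ± 0.18 SE (limma adjusted p = 0.0431), and this call ended under 11 of 20 alternatives. Median log2 changes of the 5 lists lay between −0.03 and 0.01, close to that of all genes.

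**Figure D2:**
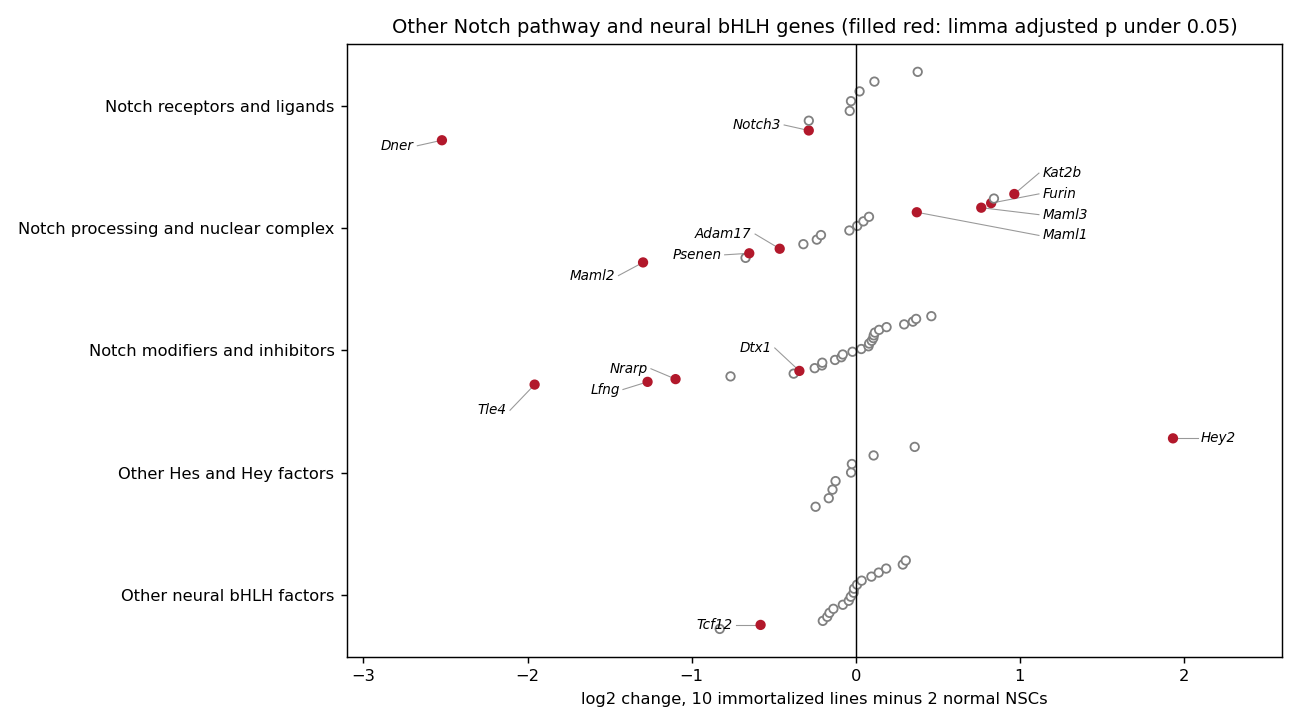
Log2 change of other Notch pathway and neural bHLH genes, 10 immortalized lines minus 2 normal NSCs, 1 point per gene, by list. Filled points passed limma's test, and Hey2 is furthest right at 1.93 and Dner furthest left at −2.52.

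The second comparison was by p53 label, 6 mutant lines against 4 WT lines. None of the 9 genes was called by limma, and none had an unadjusted p under 0.05, beside 0.0201% of all genes called (4 genes, 0.00502% higher and 0.015% lower in mutant lines). The largest differences were those of Hey1 (7.86 ± 0.88 SD, n = 6, in mutant lines and 7.40 ± 0.39 SD, n = 4, in WT lines) and Jag1 (8.43 ± 0.50 SD in mutant lines and 8.88 ± 0.98 SD in WT lines). Both lay within the spread, with log2 changes of 0.46 ± 0.41 SE and −0.45 ± 0.40 SE (limma adjusted p = 0.824 for both). Each rested on 1 line: without line 95 the Hey1 difference was 0.14, and without line 123 the Jag1 difference was 0.0082. Notch2 averaged 8.93 in mutant and 8.73 in WT lines (0.20 ± 0.15 SE), and Hes5 8.10 in mutant and 7.99 in WT lines (0.11 ± 0.08 SE). For Notch1, Dll1, Olig1 and Olig2 the means of mutant and WT lines differed by at most 0.05 on the log2 scale, in either direction. In order of level, Notch2 was highest in mutant lines, then WT lines, then NSCs (7.12 ± 0.20 SD, n = 2), and Notch1, Dll1, Hes5, Hey1 and both Olig genes were highest in NSCs. Jag1 came in the order NSCs, WT lines and mutant lines, and Hes1 in the order mutant lines, WT lines and NSCs, with overlapping neighbours in both. Of the other pathway lists no gene was called either. Notch3 (0.03), Rbpj (−0.26) and Nrarp (−0.17) had limma adjusted p-values of 0.943, 0.888 and 0.89.

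Each genotype was also set against NSCs alone, with the same 2 NSC arrays in both fits. The same 5 genes were called in each. Over the 20 alternative fits of lines against NSCs, both of these included, 1402 to 3170 genes of all were called. The log2 changes of mutant and WT lines were 1.82 and 1.61 for Notch2, −0.96 and −0.92 for Notch1, −0.78 and −0.79 for Dll1, −3.83 and −3.81 for Olig1, and −3.65 and −3.68 for Olig2.

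Tumors were next compared with SubQ tissue. Notch2 and Jag1 were higher in the 12 tumors than in the 3 SubQ samples, and Hes5, Olig1 and Olig2 were lower. Notch1, Dll1, Hes1 and Hey1 did not pass the test. That made 5 of 9 genes called by limma, 2 higher and 3 lower, beside 76.5% of all genes (30.7% higher and 45.8% lower), so the share called among the 9 was below the background. The median change of all genes was −0.28 as deposited, −0.14 after centring each array on its median and −0.11 after quantile normalization, and changes relative to the median of all genes are given below as well.

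Notch2 had log2 levels between 6.30 (a line 1 tumor) and 8.08 (a line 59 tumor) in tumors, with a median of 7.40, against 5.39, 5.38 and 5.41 in SubQ. Every tumor lay above all SubQ samples. The log2 change was 2.01 ± 0.31 SE (limma adjusted p = 1.81e-05), or 2.29 relative to the median of all genes, and it was called under every alternative run. Jag1 ranged over 5.92 to 8.19 in tumors (median 6.90), against 6.29, 5.48 and 6.33 in SubQ. The groups overlapped through line 31 tumors, and the change of 0.94 ± 0.39 SE (limma adjusted p = 0.0365), 1.22 relative to all genes, lost its call after quantile normalization (0.72), without SubQ replicate 1 (1.07) or 2 (0.67), and with line as a random block (limma adjusted p = 0.0516).

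Notch1 ranged over 5.56 to 6.40 in tumors (median 5.94), against 6.59, 5.56 and 6.23 in SubQ. The groups overlapped fully (−0.14 ± 0.19 SE, limma adjusted p = 0.502). Dll1 ranged over 4.80 to 5.77 in tumors (median 5.21), against 6.23, 4.44 and 6.23 in SubQ. SubQ replicate 2 decided this result: the change was −0.40 ± 0.28 SE with it (limma adjusted p = 0.205) and −0.99 without it (limma adjusted p = 0.000277).

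Hes5 ranged over 6.40 to 6.77 in tumors (median 6.60), against 7.23, 7.19 and 7.10 in SubQ. No tumor reached the lowest SubQ sample, and the log2 change was −0.58 ± 0.11 SE (limma adjusted p = 0.000165), −0.30 relative to all genes and −1.83 after quantile normalization. Hes1 ranged over 5.73 to 6.42 in tumors (median 6.12), against 5.51, 6.09 and 6.41 in SubQ, and Hey1 over 5.50 to 8.03 in tumors (median 6.50), against 6.03, 6.29 and 6.68 in SubQ. Both overlapped with SubQ, with changes of 0.11 ± 0.17 SE and 0.10 ± 0.40 SE (limma adjusted p = 0.564 and 0.826).

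Both Olig genes were lower in tumors than in SubQ. Olig1 ranged over 4.46 to 4.73 in tumors (median 4.64), against 5.49, 5.17 and 5.02 in SubQ, and Olig2 over 4.23 to 4.95 in tumors (median 4.66), against 6.35, 6.04 and 5.19 in SubQ. No tumor reached the lowest SubQ sample in either gene. The log2 changes were −0.62 ± 0.12 SE for Olig1 (limma adjusted p = 0.00013) and −1.27 ± 0.20 SE for Olig2 (limma adjusted p = 2.46e-05), −0.34 and −0.99 relative to all genes. After quantile normalization Olig1 turned to 0.017 and lost its call, and Olig2 stayed at −1.16. Tumor means of both genes lay under the 25th percentile of genes, at percentile 22.1 for Olig1 and 21.8 for Olig2. The SubQ mean was at percentile 19.0 for Olig1, also under the 25th, and at 50.7 for Olig2. Whether these levels exceeded background was not tested.

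**Figure D3:**
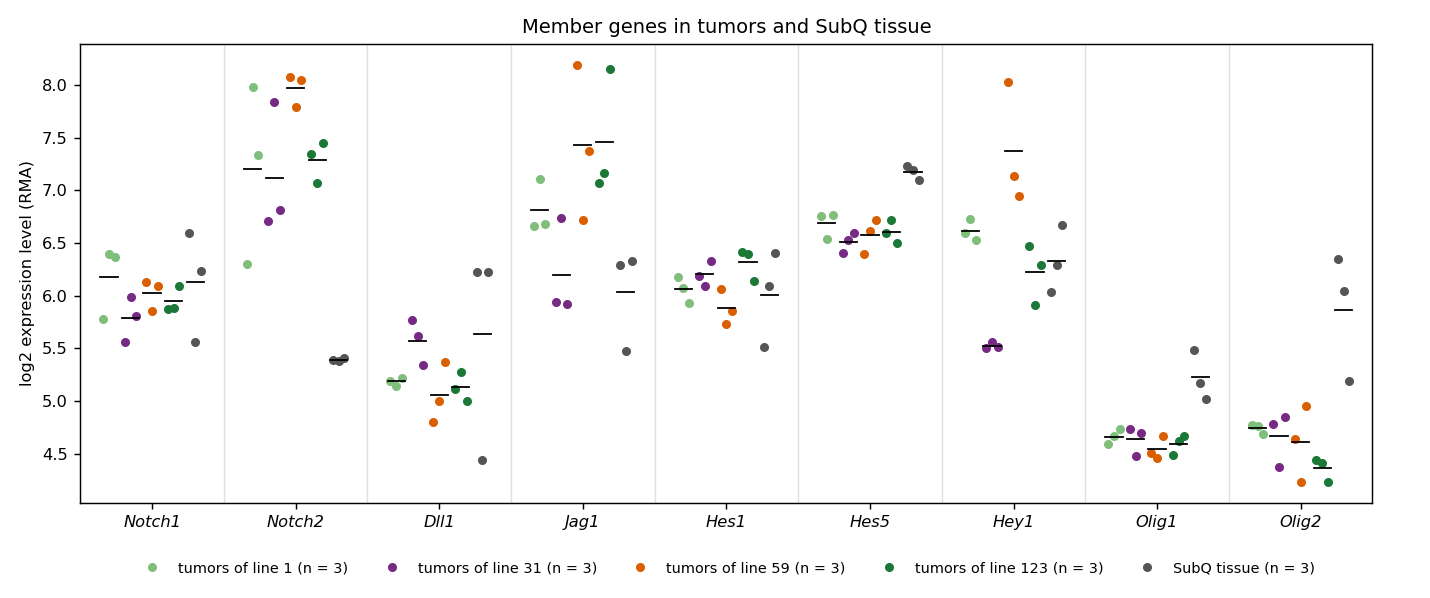
Log2 expression level (RMA) of the 9 genes in tumors of lines 1, 31, 59 and 123 and in SubQ tissue, 1 point per array, with a bar at each group mean (n = 3). Notch2 is above the SubQ samples in all 12 tumors, and Hey1 separates line 31 tumors (5.50 to 5.56) from line 59 tumors (6.95 to 8.03).

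Markers of other cell types were also called in this comparison. Beside their counts stand 30.7% of all genes higher and 45.8% lower. All 10 macrophage markers were higher in tumors (list mean 8.32 to 9.41, against 6.18 to 6.51 in SubQ), and 4 of 10 endothelial markers were higher and none lower (6.03 to 7.30 in tumors, against 5.68 to 5.89 in SubQ). Markers of adipocytes (6 of 7), skeletal muscle (6 of 8) and keratinocytes (5 of 8) were lower in tumors, with list means of 5.16 to 6.78, 5.43 to 8.32 and 4.92 to 7.61 in tumors, against 6.99 to 7.36, 7.53 to 8.40 and 7.22 to 8.14 in SubQ. Fibroblast markers (6 of 8) were higher in tumors and none lower (8.16 to 9.38, against 7.28 to 7.80 in SubQ). Mural markers were split, 3 of 8 higher and 3 lower (6.29 to 7.17, against 6.12 to 6.36 in SubQ). Of the 3 lower mural markers 1 was Notch3, itself a gene of the Notch pathway. Of the neural lists, neural stem cell markers had 2 of 10 higher and 4 lower in tumors (5.80 to 6.54, against 5.91 to 6.14 in SubQ), astrocyte markers 2 of 8 higher and 5 lower (5.92 to 6.33, against 6.22 to 6.65 in SubQ), oligodendrocyte precursor markers 1 of 9 higher and 4 lower (5.40 to 6.05, against 5.82 to 5.97 in SubQ), and neuron markers 2 of 8 higher and 4 lower (5.25 to 6.70, against 5.596 to 5.93 in SubQ). The part of these cells in the Notch and Olig results was not tested.

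In the wider pathway, of 8 other receptors and ligands 5 were lower in tumors and none higher, among them Dll3, a divergent ligand (−1.18 ± 0.13 SE), Notch4, an endothelial receptor (−0.69 ± 0.16), Notch3 (−0.59 ± 0.15, limma adjusted p = 0.00232) and Dlk1, a ligand-like protein (−0.56 ± 0.13). Of 16 processing and nuclear genes 9 were higher and 3 lower. Beside these counts and those of the next lists stand 30.7% of all genes higher and 45.8% lower. As deposited, Adam10 and Adam17, the metalloproteases that cut the receptor, rose by 2.77 ± 0.21 SE and 1.76 ± 0.14. Psenen, a gamma-secretase subunit, rose by 2.51 ± 0.23, and Rbpj by 2.14 ± 0.17 (limma adjusted p = 8.96e-09). The change of Rbpj was 0.60 after quantile normalization and kept its call.

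Of 26 modifiers 11 were higher and 6 lower, led by the ubiquitin ligase Mib1, which activates ligands (2.15 ± 0.16 SE), the deacetylase Hdac1 (2.08 ± 0.21) and the ubiquitin ligases Itch (1.61 ± 0.14) and Dtx3l (1.35 ± 0.26). The changes of Hdac1 and Itch were 0.56 and 0.20 after quantile normalization, and that of Itch lost its call. Nrarp did not pass the test (−0.31 ± 0.20 SE, limma adjusted p = 0.174). Of 9 other Hes and Hey factors 1 was higher, Bhlhe40, a stress- and clock-responsive repressor (1.46 ± 0.37), and 7 were lower, among them Hes2 (−1.21 ± 0.15), Helt (−1.15 ± 0.13) and Hey2 (−0.95 ± 0.21). Hey2 lost its call after quantile normalization, at −0.41. Tumor means of Hes2 (4.65), Helt (4.36) and Hey2 (4.35) lay under the 25th percentile of genes in tumors (4.75). The SubQ mean of Hey2, 5.30, lay under that of SubQ (5.38) too. Of 18 other neural bHLH factors the E proteins Tcf4 (2.57 ± 0.20) and Tcf12 (2.21 ± 0.20) were higher. A further 14 were lower, beside 45.8% of all genes, led by the neuronal differentiation factors Neurod6 (−2.15 ± 0.20) and Neurod4 (−1.97 ± 0.18). Tumor levels of these 2, 2.32 and 2.93, were below the 25th percentile of genes (4.75). Their SubQ levels, 4.47 and 4.90, were below that of SubQ (5.38) too, as were those of Neurod1, Olig3, Nhlh1 and Nhlh2. Whether these levels exceeded background was not tested. Over all alternatives wide ranges were seen for Neurod6 (−2.42 to −1.10), Neurod4 (−2.21 to −1.07), Tcf12 (1.28 to 2.37), Helt (−1.30 to −0.68), Notch3 (−1.15 to −0.45) and Notch4 (−1.17 to −0.55), all still called. Median changes of the lists, −0.48 for receptors and ligands, 0.64 for processing, 0.08 for modifiers, −0.55 for Hes and Hey factors and −0.91 for neural bHLH factors, are to be read against −0.28 for all genes.

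**Figure D4:**
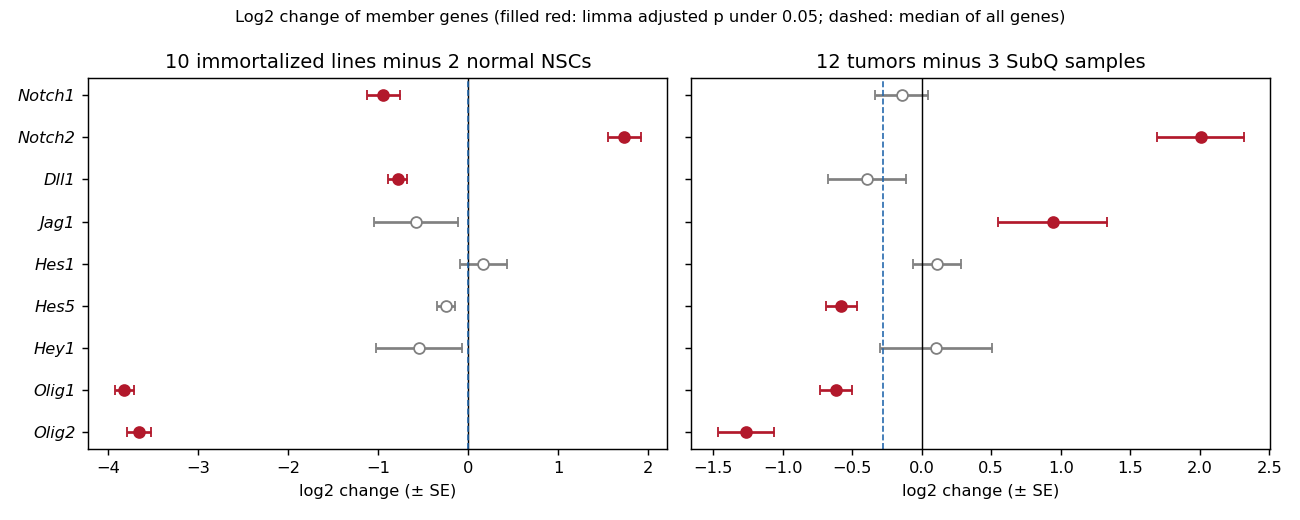
Log2 change ± SE of the 9 genes in lines minus NSCs and in tumors minus SubQ, with the dashed line at the median change of all genes. Filled points passed limma's test, and Notch2 is the gene furthest right in both panels, at 1.74 and 2.01.

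Among the 4 tumor lines only Hey1 was called of the 9 genes, beside 5.07% of all genes (limma F test, adjusted p under 0.05). Hey1 had log2 levels of 6.59, 6.73 and 6.53 in line 1 tumors, 5.50, 5.56 and 5.51 in line 31 tumors, 8.03, 7.14 and 6.95 in line 59 tumors and 6.47, 5.91 and 6.29 in line 123 tumors. The order of the line means was line 59 (7.37 ± 0.58 SD), line 1 (6.62 ± 0.10), line 123 (6.23 ± 0.28) and line 31 (5.52 ± 0.03), with no overlap between neighbours in this order. The line means spanned 1.85, with a limma adjusted p of 0.00422. Line 59 tumors exceeded the mean of the other lines by 1.25 ± 0.19 SE (limma adjusted p = 0.00794, beside 1.17% of all genes called in line 59, 0.752% higher and 0.416% lower), a change that ranged over 0.92 to 1.47 when single tumors were left out. Line 31 tumors were lower than the mean of the other lines, with a log2 change of −1.22 ± 0.19 SE (limma adjusted p = 0.0118, beside 1.39% of all genes called in line 31, 0.627% higher and 0.762% lower), and this call ended without line 31 replicate 1 (−1.20, limma adjusted p = 0.0904).

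Hey1 is also expressed in endothelium, so endothelial markers are given beside it. Their list mean was 7.04 to 7.30 in line 1 tumors, 6.07 to 6.58 in line 31, 6.25 to 6.46 in line 59 and 6.03 to 6.50 in line 123, and all 10 markers were higher in line 1 than in the other lines at an unadjusted p under 0.05, 2 of them by the adjusted test. The 1 marker called lower in each of lines 31, 59 and 123 was Tek, an endothelial receptor, which averaged 9.46 in line 1 tumors, 5.72 in line 31, 5.68 in line 59 and 5.64 in line 123. The part of endothelial cells in the Hey1 result was not tested. No endothelial marker lay under the 25th percentile of genes in tumors. Other lists moved with these contrasts as well. In line 59 tumors 2 of 10 neural stem cell markers were higher and none lower (list mean 6.40 to 6.54, against 5.80 to 6.26 over the other lines), and 2 of these 10 lay under the 25th percentile, Fabp7 and Prom1. In line 31 tumors 2 of 10 macrophage markers were higher and none lower, 6 with an unadjusted p under 0.05 (list mean 9.15 to 9.41, against 8.32 to 9.35 over the other lines). The part of these other lists in the Hey1 result was not tested either.

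For the other genes the tumor lines did not differ by the adjusted test. Jag1 averaged 7.46 ± 0.60 SD in line 123, 7.43 ± 0.74 in line 59, 6.82 ± 0.26 in line 1 and 6.20 ± 0.46 in line 31 (n = 3 each). Its unadjusted p was 0.0157 and its limma adjusted p 0.133, and neighbours in this order overlapped. Dll1, with the highest mean in line 31 (5.57 ± 0.22 SD) and the lowest in line 59 (5.06 ± 0.29), had a limma adjusted p of 0.198. Hes1, highest in line 123 (6.32 ± 0.16 SD) and lowest in line 59 (5.88 ± 0.17), had a limma adjusted p of 0.219. Notch2 averaged 7.97 ± 0.15 SD in line 59, 7.29 ± 0.20 in line 123, 7.21 ± 0.85 in line 1 and 7.12 ± 0.63 in line 31 (limma adjusted p = 0.406), and single tumors ranged over 6.30 to 7.99 in line 1 and 6.71 to 7.84 in line 31. Means of Notch1, Hes5, Olig1 and Olig2 spanned 0.40, 0.18, 0.12 and 0.38 over the lines. None of the 9 genes was called in line 1 against the others (4.62% of all genes, 2.33% higher and 2.29% lower, no gene with an unadjusted p under 0.05) or in line 123 (0.848% of all genes, 0.627% higher and 0.221% lower, 1 gene with an unadjusted p under 0.05).

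Of the other pathway genes 5 were called by the F test among the tumor lines, beside 5.07% of all genes. They were 2 of 16 processing and nuclear genes, 2 of 26 modifiers and 1 of 9 other Hes and Hey factors. None was called of 8 other receptors and ligands or of 18 other neural bHLH factors. The count is not read as a result about the pathway. Bhlhe41, a repressor of the Hes-related group and partner of the circadian clock, had 4.43, 4.18 and 4.13 in line 1 tumors, 6.82, 7.14 and 5.86 in line 31, 5.99, 5.89 and 5.77 in line 59 and 5.98, 6.06 and 6.32 in line 123 (limma adjusted p = 0.00107). All line 1 tumors lay below all others (−1.95 ± 0.21 SE, limma adjusted p = 0.000283), and line 31 was higher than the other lines (1.19 ± 0.21 SE, limma adjusted p = 0.0176, a call that ended under 2 of 17 alternatives). Poglut1, the O-glucosyltransferase of Notch EGF repeats, averaged 7.38 in line 1, 7.46 in line 31, 6.56 in line 59 and 6.76 in line 123 tumors (limma adjusted p = 0.00546). It was lower in line 59 (−0.64 ± 0.12 SE, limma adjusted p = 0.0213) and higher in line 31 (0.56 ± 0.12 SE) and line 1 (0.45 ± 0.12 SE), calls that ended under 4, 13 and 14 of 18 alternatives, and line 123 was not called (−0.38 ± 0.12 SE, limma adjusted p = 0.171). Rbpj was higher in line 31 tumors, with 9.42, 9.17 and 9.09, against 8.42 to 8.88 in the other 9 tumors (0.52 ± 0.10 SE, limma adjusted p = 0.0327), a call that ended under 11 of 18 alternatives. Kat2b was higher in line 59 (0.62 ± 0.13 SE, a call that also ended under 11 of 18 alternatives) and lower in line 1 (−0.62 ± 0.13 SE), and Dtx4, a deltex family ligase, was higher in line 59 (0.59 ± 0.12 SE, a call that ended under 10). Ptf1a, a bHLH factor of inhibitory neuron precursors, was called in the contrast of line 1 with the others alone (0.51 ± 0.13 SE, limma adjusted p = 0.0404), a call that ended under 9 of 17 alternatives. Notch3 (limma adjusted p = 0.808) and Nrarp (limma adjusted p = 0.117) were not called by the F test.

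Lines 31, 59 and 123 were profiled both as tumors and in culture. Since the sets of arrays may have been scaled apart, the values are described without a test. They are given as they stood once all arrays had been quantile normalized together, with 3 tumors and 1 culture per line. Notch1 was below the culture in all 9 tumors, at 6.18 in tumors against 6.54 in culture for line 31, 6.39 against 6.65 for line 59 and 6.32 against 7.02 for line 123. Notch2 was above the culture in all tumors of line 59 (8.38 in tumors against 7.42 in culture) and line 123 (7.71 against 7.29), and in 1 of 3 of line 31 (7.61 against 7.79). Jag1 differed in direction between lines. It was below the culture in all tumors of line 123 (7.89 in tumors against 8.98 in culture), whose culture had the highest Jag1 of all lines, above it in 2 of 3 tumors of line 59 (7.80 against 7.13), and above it in 1 of 3 tumors of line 31 (6.63 against 6.74).

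Hey1 was above the culture in all tumors of lines 59 (7.75 in tumors against 6.90 in culture) and 123 (6.59 against 5.94), and below it in all tumors of line 31 (5.90 against 6.42). The directions of Notch1, Notch2, Jag1 and Hey1 were the same after centring the arrays instead. Hes1 was above the culture in all tumors of lines 31 and 123, by means of 0.43 and 0.29, and Olig1 below it in all 9 tumors, by mean log2 differences of −0.44, −0.31 and −0.26 for lines 31, 59 and 123. For Dll1, Hes5 and Olig2 the lines differed in sign, with mean differences of −0.47 to 0.40. Tumors also hold host cells, and their part in these differences was not tested.

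**Figure D5:**
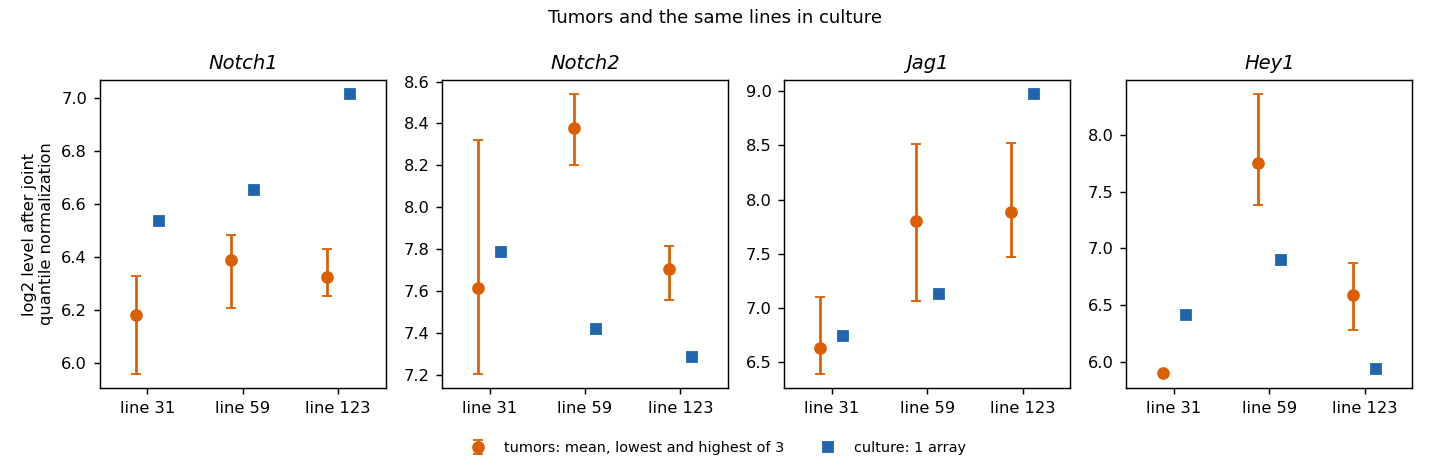
Log2 level of Notch1, Notch2, Jag1 and Hey1 after joint quantile normalization in tumors (mean, lowest and highest of 3) and in the same line in culture (1 array). Notch1 lies below the culture in all 3 lines, and Hey1 below it in line 31 and above it in lines 59 and 123.

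The genes whose levels followed a member most closely were found by Pearson's r over the 12 cell arrays and over the 12 tumors, among genes above the median level and for members that ranged over at least 1 on the log2 scale. These values describe arrays that share groups and lines. Over the cell arrays, where NSCs and lines lie far apart, Olig1 was closest to Ncan (r = 0.997), Lsamp and Trf, and Olig2 to Cdh4, Chrna4 and Ncan. Notch2 was closest to Ccn1 (r = 0.97), Cyld and Pi4k2b, and Notch1 to Repin1 (r = 0.95), Rab31 and Tcn2. Jag1 was closest to Dolk (r = 0.93), Plxnb1 and Pak4, Hes1 to Cachd1 (r = 0.92), Itgav and Creld1, and Hey1 to Tmem237 (r = 0.96), Phf3 and Acy3. Each of these 3 members had 1 line far from the other lines, so their r can rest on 1 array. These were line 123 for Jag1 (10.26), line 331 for Hes1 (6.35) and line 95 for Hey1 (9.46). The r without them was not tested. Over the tumors Hey1 was closest to Adh7 (r = 0.94), Dysf and Pmaip1, Notch2 to Ppp2r5d (r = 0.98), Zfp142 and Clptm1, and Jag1 to Creb3l1 (r = 0.92), Exosc10 and Dhx30. No member was among the 3 genes closest to another.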

How the data were processed

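RNA of 27 samples was measured on Affymetrix arrays. Per the submitters' processing notes, which also name GCOS and Affymetrix Expression Console and no versions, the authors used RMA. It gives 1 log2 level for each probe set, the unit of the deposited table. The genome build behind the probes is not given in the sources used here. Of 34760 probe sets, 21640 listed with 1 gene were used; where a gene had several (954 genes), the brightest on average stood for it, which left 19937 genes. A few genes of the pathway lists are not reported here.

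Groups were taken from the labels. Comparisons within cell arrays and within tissue arrays were fitted over all genes with limma 3.58.1 in R 4.3.3 (lmFit, eBayes, 2-sided), with Benjamini-Hochberg adjustment over all genes and a call at an adjusted p under 0.05. Line 1, 31, 59 and 123 tumors entered a moderated F test and contrasts of 1 line with the other 3 averaged. The fit was tested on simulated data. The genes and lists were chosen with earlier results of these data known. The rule for names covered the 9 genes, up to 4 called genes per pathway list and comparison with the largest change, Rbpj, Notch3 and Nrarp, and the 3 genes most like a member. Alternatives were the mean of probe sets, a filter at the median level, trend and robust eBayes, centring, quantile normalization, leaving out each array, a replicate block, each p53 genotype alone and line as a random block. Promoter motifs were counted in Python 3.11.15. The number of arrays limits the precision; no read depth applies.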

Additional observations from a re-analysis of the deposited data

Results flagged for a closer look

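Among the 10 immortalized lines, 3 genes had a single line far from the rest by Dixon's gap test at the 95% level (critical value 0.466 for 10 samples). Hey1 was highest in line 95, at a log2 level of 9.46, with a gap of 0.599 of the whole range to the next line. Jag1 was highest in line 123, at 10.26, with a gap of 0.486 of the range. Hes1 was lowest in line 331, at 6.35, with a gap of 0.478 of the range. Chance marks about 1 in 20 groups, and 27 groups of lines, p53 mutant lines and p53 WT lines were tested. Each line was measured by 1 array, so line and array cannot be told apart.

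Hey1 also differed among tumors of the 4 lines (limma F test, adjusted p = 0.00422), highest in line 59 and lowest in line 31.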

How the results depend on the processing

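With genes above the median level alone, Dll1, Olig1 and Olig2 were left out by the filter and not tested. Of the members still tested, 2 were called in lines against NSCs and 3 in tumors against SubQ. The calls missing in both comparisons were those of the genes left out. In these fits 1 gene of all was called between mutant and WT lines, and 7153 in tumors against SubQ. Quantile normalization left 3 of the 9 called in tumors against SubQ, where Hey1 turned to −0.32 and Olig1 to 0.017. It also turned Hes5 in line 123 tumors to −0.0098, and centring turned Olig1 between mutant and WT lines to 0.0041. The cause was not tested. The median tumor minus culture difference over the 9 genes and 3 lines was −1.72 as deposited, −0.16 after quantile normalization and −0.21 after centring.

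Leaving out single arrays gave 1402 to 3170 genes called in lines against NSCs (2992 with all arrays, lowest without NSC replicate 2), and 0 to 10 between mutant and WT lines. It gave 469 to 1659 genes among tumor lines, 329 to 1388 for line 1, 47 to 562 for line 31 (0 to 1 of the 9), 86 to 304 for line 59 and 44 to 278 for line 123. Log2 changes that turned between mutant and WT lines ranged over −0.166 to 0.0722 (Notch1), −0.0496 to 0.091 (Dll1), −0.692 to 0.0082 (Jag1), −0.0712 to 0.361 (Hes1), −0.0727 to 0.0284 (Olig1) and −0.0093 to 0.101 (Olig2). In tumors against SubQ they ranged over −0.428 to 0.0879 (Notch1), −0.136 to 0.315 (Hes1) and −0.049 to 0.273 (Hey1). Among tumor lines they ranged over −0.646 to 0.199 (Notch2, line 1), −0.0093 to 0.117 (Olig1, line 31), −0.0146 to 0.139 (Notch1, line 59), −0.0916 to 0.0667 (Hes5, line 59), −0.154 to 0.204 (Olig2, line 59), −0.0433 to 0.068 (Hes5, line 123) and −0.0613 to 0.0278 (Olig1, line 123). None of these passed the test with all arrays.

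The titles share replicate numbers, but 3 of 32 pairs of same-numbered samples deviated together with a correlation over 0.1 (range −0.282 to 0.335). The main fits therefore did not use the numbers as pairs. With 2 or 3 arrays in most groups, such correlations cannot exclude a pairing. With the replicate block, only numbers 1 and 2 occurred both in lines and in NSCs. That fit therefore compared lines 3 and 28 alone with the 2 NSC arrays, not all 10 lines. Jag1 was called in it (−1.05, limma adjusted p = 0.00965), which made 6 of the 9, with 3032 genes of all. The replicate block gave 5 of the 9 and 15175 genes in tumors against SubQ, and 1 of the 9 and 892 genes among tumor lines.

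The count of arrays, 2 NSC and 3 SubQ, and the narrow spread of the SubQ arrays limit what can be seen.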
